A study of Mus musculus with 14 samples.

Results

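Mitochondrial ribosomal protein genes were described in livers and hepatocytes of mice labelled as lacking the m6A methyltransferase gene Mettl3 in hepatocytes. The genes were all entries whose symbol begins with Mrpl or Mrps and a digit, without pseudogene names. This gave 76 of the 22564 gene entries of the expression tables, and 30 of them encode large-subunit proteins with a bacterial counterpart, 19 large-subunit proteins found only in mitochondria, 16 small-subunit proteins with a bacterial counterpart and 10 small-subunit proteins found only in mitochondria. The remaining gene, Mrps36, carries the family name but encodes a component of the α-ketoglutarate dehydrogenase complex. Mrpl57 was named only in the peak lists, and Mrpl58, which encodes a ribosome rescue factor of the large subunit, had no entry under that symbol. The set was defined by name and not by any measured value.

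The mitoribosome is the ribosome of the mitochondrial matrix. It translates the few mRNAs of the mitochondrial genome, all of which encode subunits of the respiratory chain and the ATP synthase, while its own proteins are encoded in the nucleus, made in the cytosol and imported. Liver is rich in mitochondria, and the nuclear genes for mitoribosomal proteins are commonly described as housekeeping genes with CpG-rich promoters that hold sites for NRF1, ETS factors such as GABPA, and YY1. Mettl3 encodes the catalytic subunit of the complex that places N6-methyladenosine (m6A) on mRNA, mostly on the adenosine of GGAC and related motifs.

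All samples came from C57BL/6 mice aged 8 weeks. The cKO groups were floxed for Mettl3 and carried Cre under the albumin promoter, which is active in hepatocytes. Whether other liver cells kept the gene was not measured here. Per the study's methods, control littermates were wild type or heterozygous and also came from the Alb-Cre cross. Input RNA of m6A immunoprecipitation was measured in male hepatocytes (1 cKO and 1 WT library) and male livers (2 cKO and 2 WT libraries), with a matched immunoprecipitated (IP) library for each. Whole RNA was sequenced from female livers (1 cKO and 1 WT library). For the WT female liver the title and the genotype label disagree (the label says cKO), and the title was followed. Nothing in the labels says whether replicates were separate animals, so p-values measure only the spread between these libraries.

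The libraries differed in ways that touch every fold change below. Mettl3 was not lower in the livers labelled cKO, with 26.3 and 14.7 FPKM in cKO male livers against 8.43 and 10.6 FPKM in WT male livers, 72.3 FPKM in the cKO female liver against 29.7 FPKM in the WT female liver, and 2.91 FPKM in cKO hepatocytes against 3.44 FPKM in WT hepatocytes. A gene-level FPKM sums reads over the whole gene and does not isolate the floxed exons, so the labels are used here as given. Depth, estimated from the smallest step of the deposited scaled counts, lay between 1737380 and 10908998 fragments per library, and the median member had between 16.0 fragments in WT hepatocytes and 656.0 fragments in the cKO female liver. The library labelled cKO hepatocytes correlated across genes at 0.936 and 0.931 with the WT male livers but at 0.852 and 0.872 with the cKO male livers, and at 0.878 with WT hepatocytes. All 8 hepatocyte markers were higher, and all 8 Kupffer cell and macrophage markers lower, in the cKO than in the WT hepatocyte library (summed Kupffer markers 10.8 FPKM in cKO and 512.0 FPKM in WT). In livers, 7 of the 8 Kupffer markers had both cKO male livers above both WT male livers, and all 8 were higher in the cKO female liver. Their sums were 306.0 and 463.0 FPKM in cKO male livers against 129.0 and 139.0 FPKM in WT male livers, and 1050.0 FPKM in the cKO female liver against 329.0 FPKM in the WT female liver. Cholangiocyte markers summed to 232.0 and 160.0 FPKM in cKO against 56.0 and 18.0 FPKM in WT male livers, and to 243.0 FPKM in the cKO against 37.3 FPKM in the WT female liver. Stellate cell markers summed to 173.0 and 245.0 FPKM in cKO against 71 and 81 FPKM in WT male livers, and to 84.7 FPKM in the cKO against 100 FPKM in the WT female liver. The female sums hide that 5 of the 6 stellate markers were higher in the cKO female liver and 1 lower. Of the 8 hepatocyte markers, 3 had both cKO male livers above both WT male livers and 4 had them below. In the female liver 2 of the 8 were higher in cKO and 6 lower. Of the 6 sinusoidal endothelial markers, 1 was above and 0 below in this way in male livers, and 3 were higher and 3 lower in the cKO female liver. Of the 4 lymphocyte markers listed, 1 was above and 1 below in male livers, and 1 was higher and 3 lower in the cKO female liver. The part of these cell types in the results was not tested. Fewer cells of a type and less RNA per cell cannot be told apart in such bulk samples.

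The promoters of these genes shared sequence features that the naming rule did not use. Of the 76 genes, 67 matched a RefSeq promoter (GRCm38.p6, 250 bases before to 50 bases after the gene start). The motif CCGGAAG, recognised by ETS factors, was found on either strand in 24 of the 67 promoters (35.8%) against 12.9% of 17492 protein-coding genes. The NRF1 motif (GCGCA, any base, then GCGC) was found in 12 (17.9%, against 7.17%), AAGATGGCG, the YY1 motif, in 8 (11.9%, against 2.14%), and TATAAA in 5 (7.46%, against 14.8%). At least 1 of the first 3 motifs was present in 39 promoters (58.2%, against 20% of all genes). These are letter matches and say nothing of binding in these samples. The following stretches are examples of the ETS, NRF1 and YY1 motifs from members described below, chosen because they hold one. Of the members called or nearest to the threshold in male liver, Mrpl54 was not among the 67 matched and Mrps2 held none of the motifs. Each is shown with the motif, or its reverse complement, in capitals, written 5′ to 3′ on the strand of its gene.
Mrpl43, chr19:45006436-45006465, minus strand, ETS: caaccccggaaCCGGAAGtcaccggttagt
Mrpl43, chr19:45006480-45006509, minus strand, ETS: tcgcggtgactCCGGAAGcaaaactctcca
Mrps23, chr11:88204392-88204421, plus strand, ETS, reverse complement: tgccgcttccgCTTCCGGtaacagcccgag
Mrpl21, chr19:3283038-3283067, plus strand, ETS, reverse complement: cgctgcttccgCTTCCGGttgggactgtgg
Mrpl12, chr11:120484546-120484575, plus strand, NRF1, reverse complement: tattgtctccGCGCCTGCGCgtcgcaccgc
Mrps18a, chr17:46111005-46111034, plus strand, YY1: ggtgcgttccAAGATGGCGgccctcagggc

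The genes were spread over 17 chromosomes of the GRCm38 annotation (GENCODE M21), and 17 of them (22.4%) stood head to head with another protein-coding gene whose start lay within 1000 bases on the other strand, against 6.78% of 21951 protein-coding genes. Mrpl54 (chr10:81264713-81266934) started 26 bases from Apba3, Mrps12 172 bases from Sars2, which encodes the mitochondrial seryl-tRNA synthetase, and Mrpl49 59 bases from Fau, which encodes a cytosolic ribosomal protein. In 32 genes an exon overlapped an exon of another gene on either strand, and the sources name different library kits, only 1 of them described as directional, so reads of such genes may be shared with their neighbours. Mrpl46 and Mrps11 overlap each other in this way.

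The m6A peak lists held peaks for 30 of 77 named members in cKO hepatocytes and for 40 in WT hepatocytes. A peak here is a region where the authors' caller (MACS) found more IP than input reads, called in each library on its own. Among members of at least 1 FPKM in the matching input, 39.5% had a peak in cKO hepatocytes and 52.8% in WT hepatocytes, below the 64.6% and 63.8% of all genes at that level. The annotated transcripts of the members were short, with a median of 1284 nt against 2905 nt for all genes tested in male liver. Among all genes with transcripts under 1500 nt, 37.7% had a peak in cKO hepatocytes and 44.8% in WT hepatocytes, close to the shares of the members. The part of transcript length in the lower share was not tested beyond these values.

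Peaks were listed in both hepatocyte libraries for 16 members, only in cKO for 14, only in WT for 24 and in neither for 23. With 1 library per genotype no test was possible. The 45 member peaks in cKO and 49 in WT overlapped by at least 1 base in 15 cases, 33.3% of the cKO peaks and 30.6% of the WT peaks, against 35.3% and 35.5% of all peaks of those libraries. Median fold enrichment over input was 13.2 for the cKO member peaks, where all peaks had a median of 14.9, and 39.9 for the WT member peaks, where all peaks had a median of 28.5. The listed false discovery rate lay between 10.5% and 25.7% for the cKO member peaks and between 1.1% and 6.55% for the WT member peaks. A cutoff of 5% would thus leave 0 members in cKO and 39 in WT. The share of all genes left at that cutoff was not computed, so these counts are not a result about the members.

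Placed on GENCODE transcripts by their centre, 40.9% of the cKO member peaks and 47.9% of the WT member peaks lay in 3′UTRs, against 26.1% of all cKO peaks and 26.3% of all WT peaks. Coding sequence held 56.8% and 45.8% of the member peaks in cKO and WT, and 5′UTRs 2.27% and 6.25%. GGAC occurred within 50 bases of the centre of 17 of the 45 cKO member peaks (37.8%, against 40.5% of all cKO peaks) and 24 of the 49 WT member peaks (49.0%, against 41.5% of all WT peaks). Of the 15 stretches shared by both hepatocyte libraries, 11 held GGAC. These stretches differed in length, from 33 bases in Mrpl39 to 452 bases in Mrpl19, and a longer stretch is likelier to hold any 4 letters. The share over all shared stretches was not computed, so this count is not a result about the members. The shared stretches of Mrps5 (151 in cKO and 53.2 in WT) and Mrpl40 (48.5 in cKO and 62.9 in WT) were among the most enriched. They held no GGAC and are not shown. The following 28-base windows (GRCm38, strand of the gene, GGAC in capitals) surround the GGAC nearest to the centre of a shared stretch. Among the stretches that held GGAC, those with the highest enrichment in the lower of the 2 libraries were taken.
Mrpl18, chr17:12911402-12911429, minus strand, 3′UTR, exon 4 of 4: gtcctcattcttGGACatgagatgtatt
Mrpl18, chr17:12916297-12916324, minus strand, 5′UTR, exon 1 of 4: tagggggctgcgGGACgctgggtcaact
Mrps34, chr17:24896108-24896135, plus strand, 3′UTR, exon 3 of 3: gagtcatttgatGGACgagtgcctttga
Mrps35, chr6:147070693-147070720, plus strand, coding, exon 8 of 8: aagagctgctggGGACcaaagaggtcga
Mrpl19, chr6:81961920-81961947, minus strand, 3′UTR, exon 5 of 5: gtcttgatcctgGGACtagtgaatggct
Mrpl52, chr14:54429682-54429709, plus strand, coding, exon 5 of 5: tcaaacctaaagGGACtttactgagaag
Mrpl51, chr6:125193407-125193434, plus strand, 3′UTR, exon 3 of 3: gaagtacagataGGACgggaaatgtgtc
Mrpl54, chr10:81264717-81264744, minus strand, 3′UTR, exon 3 of 3: taaataccaaagGGACctacagcagcca

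Among these regions, the Mrpl18 3′UTR peak had a fold enrichment of 79.9 in cKO hepatocytes and 76.4 in WT hepatocytes, and the Mrpl18 5′UTR peak 26.3 in cKO and 70.5 in WT. Mrpl18 encodes a large-subunit protein whose bacterial counterpart binds 5S rRNA, and its exons overlap Tcp1 on the other strand. The 5′UTR label rests on a GENCODE transcript. By the RefSeq start used for the promoters, the window shown for that peak lies upstream of the gene, where an overlapping ETS match starts at -240. The Mrps34 peak had 34.2 in cKO and 81.5 in WT, the Mrps35 peak 45.5 in cKO and 41.6 in WT, and the Mrpl19 peak 29.2 in cKO and 30.1 in WT. Enrichment of the last 2 was thus similar in both lists, while the Mrpl51 peak had 14.8 in cKO and 86.0 in WT, and the Mrpl54 peak 12.4 in cKO and 105 in WT. Fold enrichment depends on the input reads and on depth, which differed between the libraries, so these pairs are values side by side and not a measured loss of methylation.

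The 5 highest enrichments of the hepatocyte lists fell on Mrpl13, Mrps5, Mrpl32, Mrpl42 and Mrpl39. Mrpl13, a large-subunit protein with a bacterial counterpart, had a single peak of 9.68 in cKO hepatocytes, and in WT hepatocytes a peak of 268 in another region, chr15:55534127-55534337 (3′UTR). Mrps5, a small-subunit protein with a bacterial counterpart, had 151 in cKO and 53.2 in WT at the same coding interval, chr2:127594444-127594569. Mrpl32 and Mrpl42 had no listed peak in cKO hepatocytes, against 130 for Mrpl32 and 115 for Mrpl42 in WT hepatocytes. Mrpl39 had a 33-base peak of 3.93 in cKO that overlapped a 3′UTR peak of 107 in WT, and cKO hepatocytes also had a peak of 70.8 in exon 9. Since these members were chosen by their highest value in either list, the order of the lists is not a result.

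In the male livers few members had a peak, with 1 and 2 in the cKO livers and 10 and 2 in the WT livers. Among members of at least 1 FPKM this was 1.39% and 2.63% in cKO and 13.2% and 2.67% in WT, against 7.8% and 5.36% of all genes in cKO and 14.4% and 5.51% in WT. Every one of these liver member peaks was listed with a false discovery rate of 100%. Mrpl51, a large-subunit protein found only in mitochondria, had a fold enrichment of 27.7 in 1 cKO liver at chr6:125193227-125193655, overlapping its hepatocyte peaks. Mrpl32 had 22.7 in 1 WT liver, in another exon than its hepatocyte peak. Mrps22 was listed in 1 cKO and both WT livers with intervals of 11 to 13 bases at 1 place (from chr9:98595184), which lay in a non-coding exon, and with enrichments of 2.22 in cKO and 3.75 and 2.24 in WT. Mrpl52, which had a peak in 4 of the 6 IP libraries, had 3.45 in a cKO liver and 15 in a WT liver at overlapping intervals in exon 3. Mrpl19 and Mrps35 also reached 3 of the 6 lists.

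**Figure D1:**
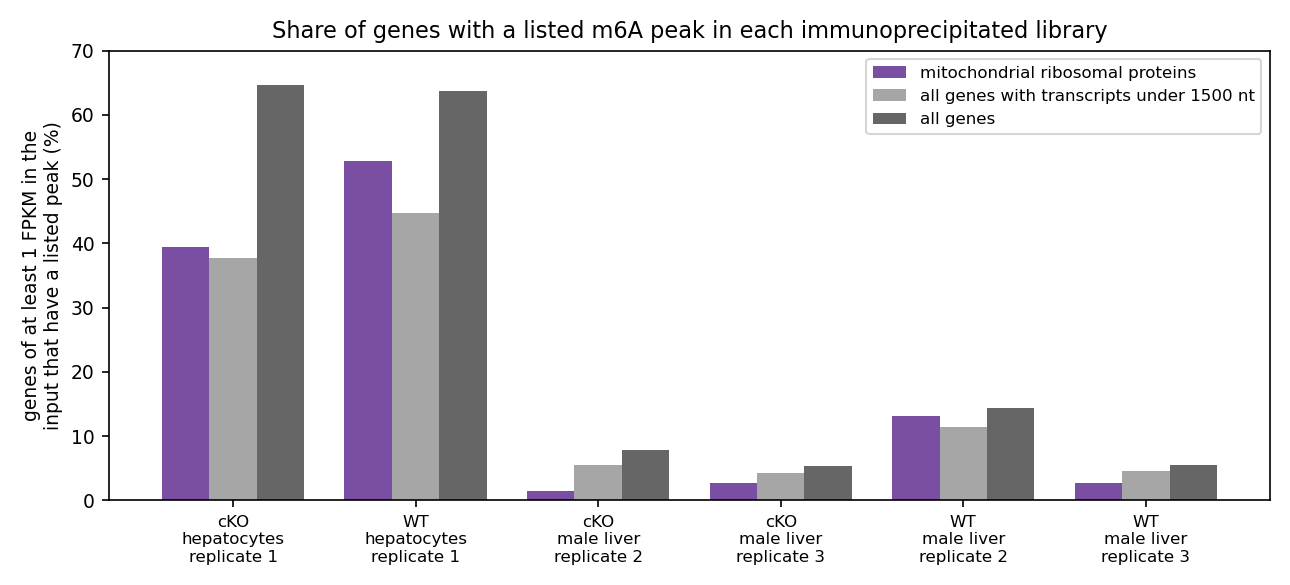
Bars give the percentage of genes with at least 1 FPKM in the matching input that have a listed m6A peak, for each of the 6 IP libraries (cKO left of WT within a tissue), for mitochondrial ribosomal protein genes, all genes with transcripts under 1500 nt, and all genes. The members lie at 39.5% in cKO and 52.8% in WT hepatocytes, near the short genes (37.7% and 44.8%) and below all genes (64.6% and 63.8%), and between 1.39% and 13.2% in livers.

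The expression level of the members differed more between tables than between genotype labels. The median member had 5.65 FPKM in cKO hepatocytes and 3.13 FPKM in WT hepatocytes, 14.4 and 21.5 FPKM in cKO male livers and 8.85 and 10.9 FPKM in WT male livers, and 54.5 FPKM in the cKO female liver and 23.1 FPKM in the WT female liver. FPKM, which divides fragments by transcript length and library size, is a per-length scale, so levels may be compared between genes, but the 3 tables were made separately. The sum over the 76 genes was 570 FPKM in cKO and 305 FPKM in WT hepatocytes, 1630 and 1987 FPKM in cKO and 944 and 986 FPKM in WT male livers, and 5882 FPKM in the cKO and 2232 FPKM in the WT female liver. Mitochondrial-encoded transcripts took 38.1% of all FPKM in cKO and 38.5% in WT hepatocytes, 28.0% and 21.9% in cKO and 17.6% and 15.5% in WT male livers, and 11.9% in the cKO and 16.3% in the WT female liver. Scaled to 1000000 FPKM of the other genes, the sum of the members was 2709 in cKO and 2605 in WT hepatocytes, 5169 and 5836 in cKO and 2984 and 2833 in WT male livers, and 9108 in the cKO and 4811 in the WT female liver. On that scale the hepatocyte libraries were nearly level, while both cKO male livers stood above both WT male livers. All genes moved the same way between these tables. Their median log2 fold change (cKO over WT) on that scale was -0.24 in hepatocytes and 0.43 in male liver, beside 0.10 and 0.66 for the members. As deposited, 44.8% of all genes had both cKO male livers above both WT male livers.

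**Figure D2:**
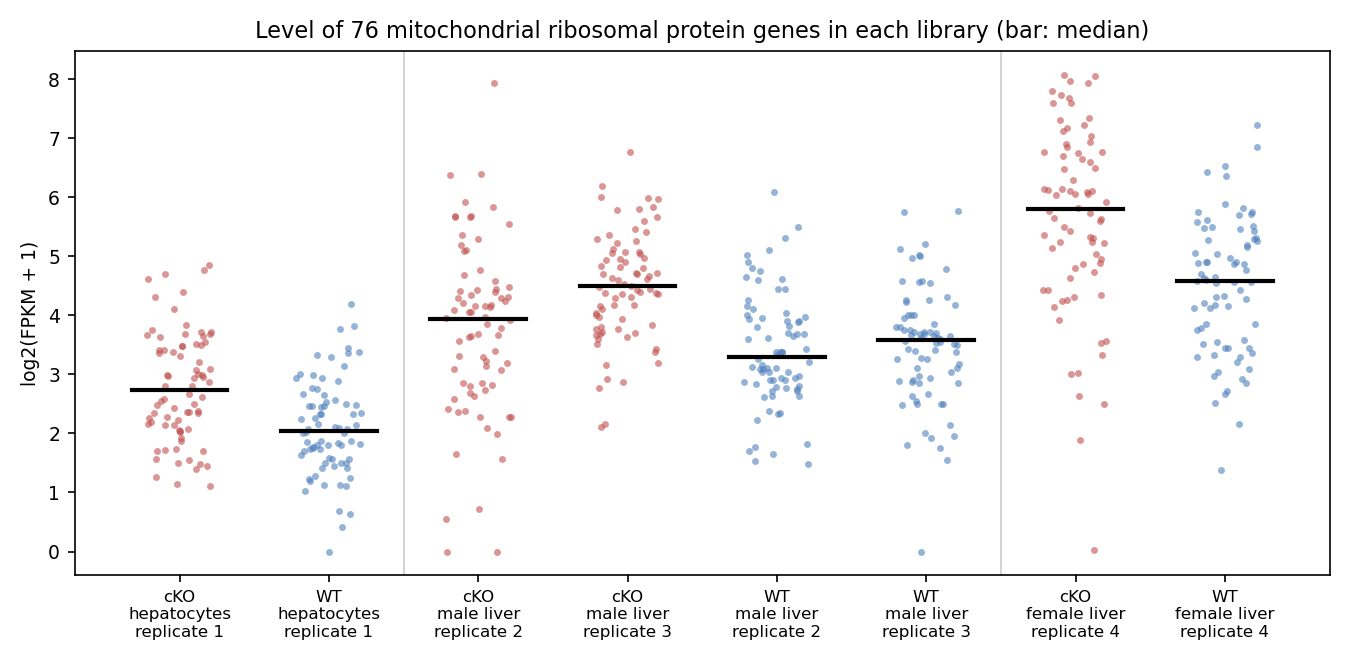
Each point is 1 of the 76 genes in 1 library, on a log2(FPKM + 1) axis, with the median as a bar and cKO libraries left of WT libraries in each table. The medians lie at 2.73 and 2.05 in cKO and WT hepatocytes, 3.94 and 4.49 in cKO and 3.3 and 3.58 in WT male livers, and 5.79 and 4.59 in the cKO and WT female liver.

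Within a library the levels of the members differed widely, between 1.16 and 28.0 FPKM in cKO hepatocytes, 3.33 and 108 FPKM in the replicate 3 cKO male liver and 1.80 and 67.4 FPKM in the replicate 2 WT male liver. Mrpl12, which forms the stalk of the large subunit and is also known to bind the mitochondrial RNA polymerase, was the highest member in all 4 male livers, with 245 and 108 FPKM in cKO and 67.4 and 53.6 FPKM in WT, and in cKO hepatocytes, with 28.0 FPKM against 13.1 FPKM in WT hepatocytes. In the female livers it was ninth and eighteenth, with 192 FPKM in cKO and 42.3 FPKM in WT. Mrps21, a small-subunit protein with a bacterial counterpart, had the next median rank over the 8 libraries, with 81.8 and 41.5 FPKM in cKO and 44.0 and 34.0 FPKM in WT male livers. Mrpl48, Mrpl35 and Mrpl11 had the lowest median ranks. Mrpl11, which binds rRNA at the base of the stalk, had 4.99 and 6.59 FPKM in cKO and 1.80 and 1.93 FPKM in WT male livers, and Mrpl10, its partner in the stalk, 18.6 and 29.5 FPKM in cKO and 9.46 and 17.0 FPKM in WT male livers.

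Large-subunit and small-subunit genes had similar levels. In male livers the median of the 49 large-subunit genes was 14.2 and 23.1 FPKM in cKO and 9.41 and 11.2 FPKM in WT, and that of the 26 small-subunit genes 15.1 and 20.4 FPKM in cKO and 7.44 and 10.6 FPKM in WT. The paralogues of the S18 family differed among themselves. Mrps18b had 33.2 and 43.1 FPKM in cKO and 24.0 and 22.5 FPKM in WT male livers, Mrps18a, whose product sits in the large subunit despite its name, 16.8 and 25.3 FPKM in cKO and 9.09 and 10.6 FPKM in WT, and Mrps18c 2.95 and 10.4 FPKM in cKO and 5.20 and 7.18 FPKM in WT. The groups did not overlap for Mrps18a and Mrps18b but did for Mrps18c.

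Male liver was the only table with replicate libraries of each label, and the effect of the genotype label was tested there. All 76 members passed the filter of a mean of at least 1 FPKM, and 3 of them rose in cKO (Mrpl43, Mrpl54 and Mrps23) while none fell, by limma on log2(FPKM + 1) with Benjamini-Hochberg adjustment over 10937 genes at 0.05. That is 3.95% of the members, near the 3.68% of all genes tested that were called higher in cKO, and 1.5% of all genes were called lower. At an unadjusted p under 0.05, 21 members were higher and none lower, against 20.2% of all genes higher and 5.11% lower. With median-ratio scaling 7 of the 76 members and 1205 of the 10937 genes were higher at that p, a lower share among the members than among all genes. The log2 fold change was above 0 in 64 of the 76 members, where 71.3% of all genes were above 0. The members had a median log2 fold change of 0.64 and all genes one of 0.42. Under median-ratio scaling these medians were 0.25 and 0.06, and 51 of the 76 members were above 0, where 53.2% of all genes were.

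Mrpl43 encodes a large-subunit protein found only in mitochondria, and it had the smallest p among the members. It had 59.6 and 56.2 FPKM in cKO male livers against 7.76 and 12.9 FPKM in WT male livers. The groups were far apart, with a log2 fold change of 2.42 ± 0.38 (SE, n = 2 each) and an adjusted p of 0.0221 in limma. Its exons overlap Twnk, the mitochondrial DNA helicase gene, on the other strand; Twnk (listed as Peo1) had 5.18 and 2.91 FPKM in cKO and 4.25 and 3.5 FPKM in WT male livers, with a log2 fold change of 0.02 ± 0.44 (adjusted p = 0.987 in limma). Mrpl43 also had 106 FPKM in the cKO and 12.8 FPKM in the WT female liver, but 6.99 FPKM in cKO and 4.52 FPKM in WT hepatocytes.

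Mrpl54, likewise a large-subunit protein found only in mitochondria, had 49.9 and 54.0 FPKM in cKO male livers against 8.6 and 15 FPKM in WT male livers. Its log2 fold change was 2.10 ± 0.39 (SE, n = 2 each, adjusted p = 0.034 in limma), and it had 250 FPKM in the cKO and 43.2 FPKM in the WT female liver, and 6.92 FPKM in cKO and 4.93 FPKM in WT hepatocytes. Mrps23, a small-subunit protein found only in mitochondria, had 82.8 and 54.5 FPKM in cKO male livers against 14.7 and 22.8 FPKM in WT male livers. Its log2 fold change was 1.82 ± 0.40 (SE, n = 2 each, adjusted p = 0.0494 in limma), just inside the threshold. Mrps23 had 30 FPKM in the cKO and 5.34 FPKM in the WT female liver, whereas hepatocytes had 2.31 FPKM in cKO and 3.29 FPKM in WT. Leaving out any 1 of the 4 libraries left none of the 3 genes past the threshold, with limma adjusted p-values between 0.115 and 0.402 and log2 fold changes between 1.52 and 2.75; each such fit has a single library in 1 group, which is assumed to vary like the other group, and 8 to 29 members then had an unadjusted p under 0.05. So few genes passed in those fits (0 to 2 in all) that the loss says little about the members. With the replicate number as a block 9 members passed, and with male and female liver in 1 fit 13 members, all higher in cKO.

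Just outside the threshold stood Mrpl21 and Mrps2. Mrpl21, a large-subunit protein with a bacterial counterpart, had 33.5 and 23.1 FPKM in cKO and 9.41 and 6.20 FPKM in WT male livers (log2 fold change 1.74 ± 0.40, adjusted p = 0.0551 in limma). Mrps2, a small-subunit protein with a bacterial counterpart, had 40.3 and 62.4 FPKM in cKO and 16.8 and 17.6 FPKM in WT male livers (1.49 ± 0.37, adjusted p = 0.0667 in limma). For both genes the cKO libraries lay above the WT libraries without overlap, as they did for Mrpl12 (1.42 ± 0.45, adjusted p = 0.113 in limma). Separation of this kind was common, since both cKO libraries were above both WT libraries in 43 of the 76 members, where 44.8% of all genes showed it, and below in none, where 11.7% of all genes showed it.

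**Figure D3:**
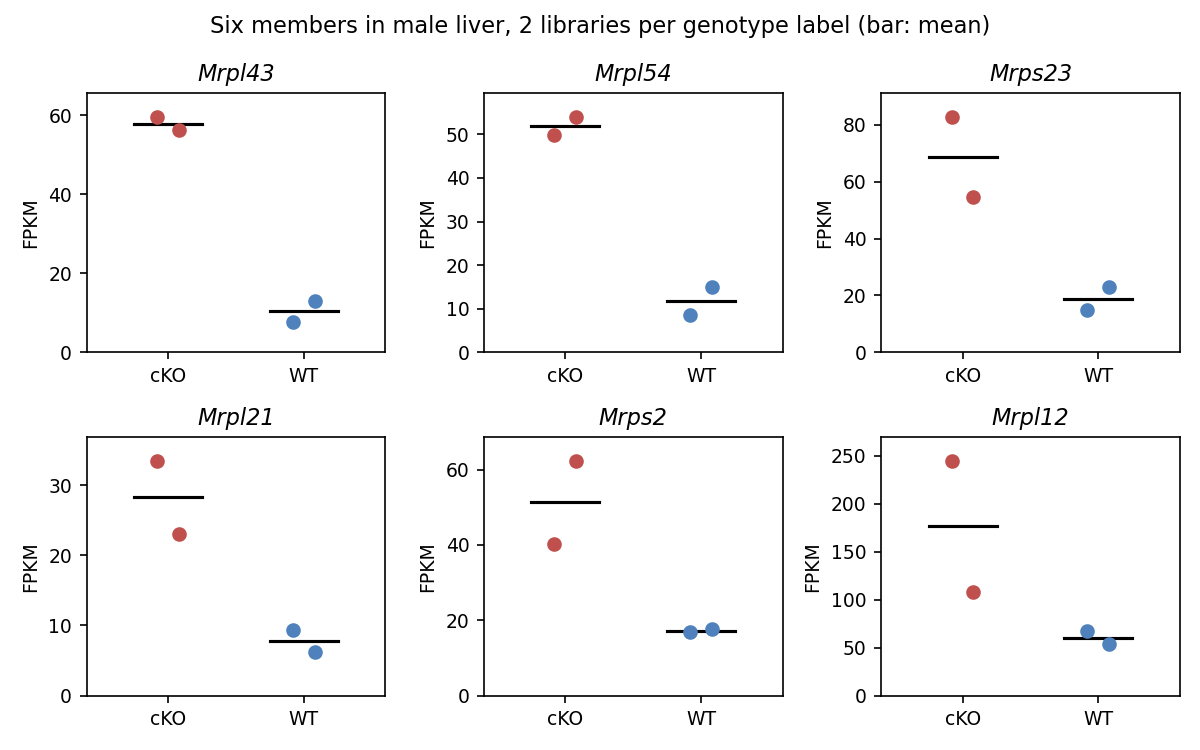
FPKM of the 3 members that passed the threshold in male liver (Mrpl43, Mrpl54, Mrps23), the 2 nearest outside it (Mrpl21, Mrps2) and Mrpl12, with each point 1 library, the bar their mean and linear axes from 0. In all 6 panels both cKO libraries lie above both WT libraries, and the cKO libraries of Mrpl12 are the widest apart (245 and 108 FPKM).

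The 2 cKO male livers differed from each other in many members. In 58 of the 76 genes the replicate 3 cKO liver was above the replicate 2 cKO liver, with a median gap of 0.63 on the log2 scale, where the median gap of all genes tested was 0.16. In WT the corresponding gap was 0.10 for the members and 0.00 for all genes. Mrpl13 had 4.17 and 22 FPKM in the cKO livers and 13.9 and 18.2 FPKM in the WT livers, and Mrps16 had 1.98 and 28.9 FPKM in cKO and 4.22 and 12.2 FPKM in WT. Without the replicate 2 cKO liver the median log2 fold change of the members was 0.91, and 74 of 76 were above 0. Without the replicate 3 cKO liver it was 0.39, and 52 of 76 were above 0, beside medians over all genes of 0.50 and 0.36. The members thus lay near all genes when only the replicate 2 cKO liver was used.

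Members named for their role covered both outcomes. Mrps12, whose bacterial counterpart S12 takes part in decoding accuracy, had 15.7 and 37.1 FPKM in cKO and 5.13 and 12.4 FPKM in WT male livers (log2 fold change 1.48 ± 0.56, adjusted p = 0.162 in limma). Mrps30, a large-subunit protein in spite of its name, had 16.6 and 20.5 FPKM in cKO and 7.23 and 8.70 FPKM in WT (1.12 ± 0.37, adjusted p = 0.121 in limma). Both genes were higher in each cKO library than in each WT library, without passing the test. Mrpl41, a large-subunit protein found only in mitochondria, had 18.0 and 19.5 FPKM in cKO and 13.8 and 10.8 FPKM in WT male livers. Mrpl47, a large-subunit protein with a bacterial counterpart, had 5.66 and 5.85 FPKM in cKO and 6.46 and 4.64 FPKM in WT, with overlapping groups. Mrps36, the dehydrogenase component, had 0.649 and 7.90 FPKM in cKO and 5.18 and 2.89 FPKM in WT, so its cKO libraries enclosed the WT values.

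Some members were listed at 0 in a library although they were clearly present in others. Mrpl52 was listed at 0 FPKM in the replicate 2 cKO male liver and had 25 FPKM in the other cKO liver, against 5.90 and 4.33e-05 FPKM in WT male livers. Mrps14, a small-subunit protein with a bacterial counterpart, was listed at 0 FPKM in the same cKO liver and had 12.1 FPKM in the other, against 1.91 and 5.22 FPKM in WT. Mrps33 had 1.80 FPKM in cKO hepatocytes and was listed at 0 FPKM in WT hepatocytes. Mrpl48 had 0.021 FPKM in the cKO and 1.59 FPKM in the WT female liver, but 11.7 and 3.33 FPKM in cKO and 12.9 and 11.5 FPKM in WT male livers. No fold is given against these values, which in such tables can also be failed estimates.

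By structural class, 2 of the 19 large-subunit proteins found only in mitochondria and 1 of the 10 such small-subunit proteins were called in male liver, and 0 of the 30 and 0 of the 16 with a bacterial counterpart, where 3.68% of all genes were called higher. At an unadjusted p under 0.05 in limma the counts were 5 of 19 and 4 of 10 in the classes found only in mitochondria and 6 of 30 and 6 of 16 in those with a counterpart, beside 20.2% of all genes. Median log2 fold changes were 0.87 and 0.71 in the 2 classes found only in mitochondria and 0.52 and 0.61 in the 2 classes with a bacterial counterpart. In hepatocytes the medians were 0.51 and 1.12 in the classes found only in mitochondria and 0.76 and 0.84 in those with a counterpart, and in female liver 1.11 and 1.43 against 1.00 and 1.12. No test compared the classes.

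In hepatocytes 73 members passed the filter, and Mrpl35, Mrpl48 and Mrps33 did not. With 1 library per label there is no test. The cKO library was higher in 64 of the 73, where 67.6% of all genes were. Counted on FPKM + 1, it was at least 2-fold higher in 23 of the 73 (31.5%), where 23.6% of all 9596 genes were. On that scale it was at least 2-fold lower in none, where 13.2% of all genes were. This excess depended on the scaling, since the share at least 2-fold higher was 5.48% of the members against 10.3% of all genes with median-ratio scaling, and 2.74% against 6.72% when mitochondrial-encoded genes were left out of the scaling. The median log2 difference was 0.74 for the members and 0.41 for all genes. Mrps18b, a small-subunit member of the S18 family, had the widest gap, with 12.5 FPKM in cKO and 1.72 FPKM in WT hepatocytes (log2 difference 2.31). Mrpl38 had 25.1 FPKM in cKO and 6.40 FPKM in WT, Mrpl18 23.5 FPKM in cKO and 6.99 FPKM in WT, and Mrpl2, whose bacterial counterpart lies near the peptidyl transferase centre, 10.1 FPKM in cKO and 2.62 FPKM in WT. These levels rested on few fragments, and the median member had 36 estimated fragments in cKO and 16.0 in WT hepatocytes. Mrpl45, with 1.74 FPKM in cKO and 3.74 FPKM in WT, was among the 9 members below 0. Its log2 difference on FPKM + 1 was -0.79, so it was not counted as 2-fold lower although its FPKM differed by more than 2-fold.

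The size of the hepatocyte difference depended on the scaling, and the median of all genes changed sign with it. With median-ratio scaling the median of the members was 0.32 and that of all genes -0.04, and 48 of 73 members were above 0. When FPKM were rescaled so that genes other than the mitochondrial-encoded ones summed to the same value, the median of the members was 0.10 and that of all genes -0.24, and 38 of 73 members were above 0. The distance between the medians of members and all genes was 0.33 as deposited, 0.36 with median-ratio scaling and 0.34 without the mitochondrial-encoded genes. In male liver that distance was 0.22, 0.19 and 0.22 under the same settings.

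In female liver 75 members passed the filter, without Mrpl48. The cKO library was higher in 68 of the 75, where 69% of all genes were. Counted on FPKM + 1, it was at least 2-fold higher in 40 of the 75 (53.3%), where 36.8% of all 11046 genes were. On that scale it was at least 2-fold lower in 1, Mrpl47, where 11.3% of all genes were. Mrpl47 had 2.72 FPKM in cKO and 13.4 FPKM in WT. The median log2 difference was 1.05 for the members and 0.61 for all genes, and the distance between them was 0.44 as deposited, 0.35 with median-ratio scaling and 0.37 without the mitochondrial-encoded genes. Mrps34, a small-subunit protein found only in mitochondria, had 193 FPKM in cKO and 16.5 FPKM in WT (log2 difference 3.47), and its exons overlap Nme3 on the same strand. Mrpl43 followed with 2.96, Mrps18b with 2.92 (269 FPKM in cKO and 34.7 FPKM in WT) and Mrps26 with 2.72 (65.5 FPKM in cKO and 9.10 FPKM in WT).

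**Figure D4:**
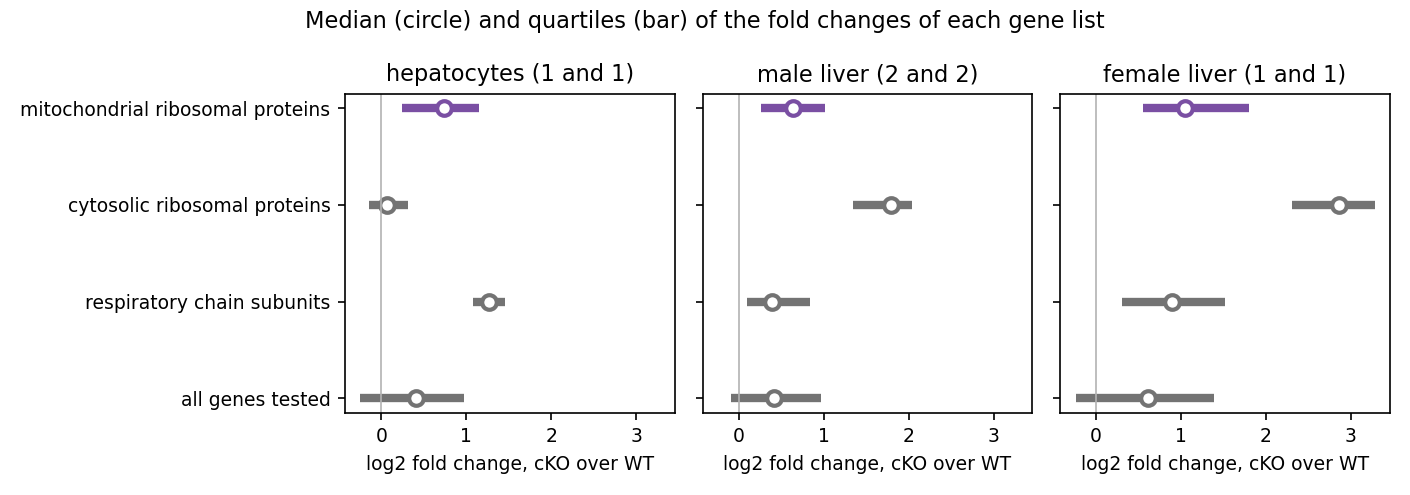
Circles are medians and bars the quartiles of the log2 fold changes (cKO over WT) of each gene list in hepatocytes, male liver and female liver. The mitochondrial ribosomal protein genes lie at 0.74, 0.64 and 1.05 beside all genes at 0.41, 0.42 and 0.61, while cytosolic ribosomal protein genes lie at 0.07, 1.79 and 2.86.

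The differences between tables were tested in a limma fit over all 8 libraries. None of the 76 members had a cKO effect in hepatocytes that differed from that in male liver (4 at an unadjusted p under 0.05, where 0.96% of all genes passed the adjusted threshold and 22.2% the unadjusted one). None differed between female and male liver either (3 at an unadjusted p under 0.05, where 0.0628% and 7.47% of all genes passed). The smallest p belonged to Mrps23 in the first contrast, with a difference of -2.19 ± 0.71 (adjusted p = 0.154 in limma), and to Mrps18b in the second, with 2.24 ± 0.57 (adjusted p = 0.653 in limma). The lone hepatocyte and female libraries were assumed to vary like the male livers, so a missing call does not show equal effects. Of 73 members measured in all 3 tables, 26 (35.6%) lay above the median of all genes in each table, where 11.6% of 8808 genes did, and 1 (1.37%), Mrps5, lay below it in each, where 12.1% did. The 3 tables share no library. This share was not computed for genes of similar length or for the sets nearest in kind. Other genes with transcripts under 1000 nt also had medians above those of all genes in each table. These were 0.48 against 0.41 in hepatocytes, 0.53 against 0.42 in male liver and 1.17 against 0.61 in female liver.

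Cytosolic ribosomal protein genes and nuclear-encoded respiratory chain genes, the sets nearest in kind, had other medians. In male liver 41 of 78 cytosolic ribosomal protein genes tested rose and none fell, with a median log2 fold change of 1.79, and 1 of 78 respiratory chain genes rose, with a median of 0.39. In hepatocytes the medians were 0.07 for the cytosolic ribosome and 1.27 for the respiratory chain, and in female liver 2.86 and 0.89. The mitoribosomal genes lay between the other sets in each table. No test compared the sets with each other.

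Genes that serve the mitoribosome were read in the same way in male liver, where 3.68% of all genes were called higher and 20.2% were higher at an unadjusted p under 0.05. No gene of the 13 mitochondrial translation factors tested, the 21 assembly factors, the 17 mitochondrial aminoacyl-tRNA synthetases or the 5 mitoribosomal proteins with other names passed limma's threshold, with 2, 3, 4 and 0 of them at an unadjusted p under 0.05 and all of those higher in cKO. Their median log2 fold changes were 0.33, 0.51, 0.57 and 0.34, beside 0.42 for all genes. Of 14 regulators of mitochondrial transcription and biogenesis, Myc, a transcription factor that also acts on ribosome genes, rose in male liver. It had 45.2 and 31.5 FPKM in cKO and 6.88 and 5.46 FPKM in WT male livers (log2 fold change 2.44 ± 0.38, n = 2 each, adjusted p = 0.0214 in limma), 23.1 FPKM in the cKO and 13.3 FPKM in the WT female liver, and 4.71 FPKM in cKO and 12.2 FPKM in WT hepatocytes. Its call was lost without the filter on low values (adjusted p = 0.101 in limma) and when any 1 of the 4 libraries was left out (0.107 to 0.311).

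Transcript length moved with the fold changes of all genes. With the ribosomal and respiratory chain genes left out, genes with transcripts under 1000 nt had a median log2 fold change of 0.48 in hepatocytes, 0.53 in male liver and 1.17 in female liver, and those of 4000 nt or more one of 0.30, 0.36 and 0.29. The 25 members under 1000 nt had medians of 0.57, 0.76 and 1.18, and those from 1000 to under 1500 nt 0.93 (21 genes), 0.68 and 1.29 (22 genes each), beside 0.54, 0.50 and 0.91 for the other genes of that length. In the female liver the shortest members thus lay at the level of other genes of their length. The other length classes held 8 to 10 members each. Members lay below other genes of their length from 2500 to under 4000 nt in male liver (0.20 against 0.43) and from 1500 to under 2500 nt in female liver (0.54 against 0.72). Lengths are those of 1 annotated transcript per gene, the longest of those with the longest coding sequence, and need not be those expressed here. Mrpl17, placed at 7300 nt, had 70 estimated fragments for 20.1 FPKM in cKO hepatocytes, and Mrpl14, at 645 nt, had 51 for 16.2 FPKM. FPKM divides by length, so in that library Mrpl17 was counted at a length nearer to that of Mrpl14 than to 7300 nt. Members in the classes of 2500 nt or more may thus be short transcripts in some libraries. The length used was not the same in all libraries. Mrpl17 had 150 fragments for 11.6 FPKM in the replicate 2 cKO male liver and 52 for 20.8 FPKM in the replicate 2 WT male liver. The part of such differences in the fold changes was not tested.

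**Figure D5:**
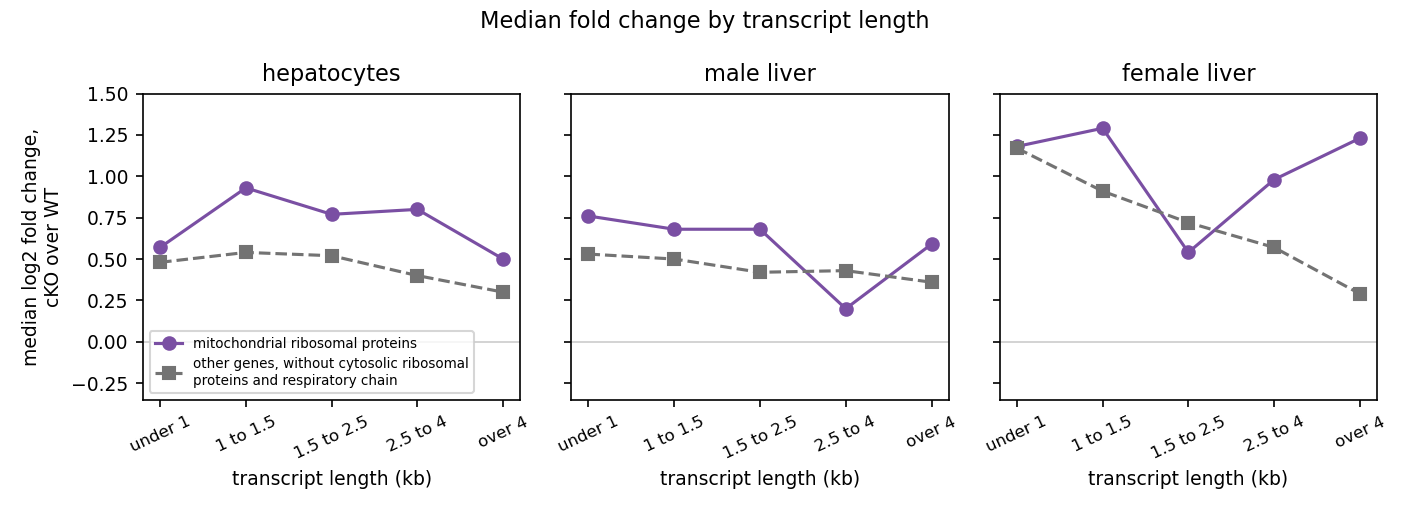
Median log2 fold change (cKO over WT) by transcript length in kb, for mitochondrial ribosomal protein genes (circles) and for all other genes without cytosolic ribosomal protein and respiratory chain genes (squares), in hepatocytes, male liver and female liver. In the female liver the other genes lie at 1.17 under 1 kb and at 0.29 from 4 kb on, and the members under 1 kb lie at 1.18. The 3 longer classes hold only 8 to 10 members each. Lengths are annotated ones, and some members in the longer classes may be expressed as shorter transcripts.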

How the data were processed

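The authors trimmed reads with cutadapt 1.9.3, aligned them to mm10 with HISAT2 2.0.4 and computed FPKM with Cufflinks and Cuffdiff; versions of the last 2 and of MACS were not given in the sources used here. The deposited FPKM of 3 separate tables were used as given. The deposited scaled count columns (a signal per gene, not whole reads) served only to estimate depth. The deposited peak lists give, per the file headers, a −log10 p score (multiplied by a constant), a fold enrichment ratio and a percent false discovery rate, called per library; the score was not used. Starts were turned to 1-based positions.

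Male liver (2 cKO, 2 WT) was tested with limma 3.58.1 (R 4.3.3; variance trend) on log2(FPKM + 1) over genes averaging 1 FPKM or more across its libraries, with Benjamini-Hochberg adjustment and a threshold of 0.05. Fold changes on this scale understate changes of low genes. Tables with 1 library per label gave differences only. In simulated male liver data 200 of 10937 genes were raised and the rest left unchanged. Of those raised by 4 on the log2 scale 90% were recovered, and of those raised by 2, 9%. The measured table had 567 genes called and a median log2 fold change of 0.42 over all genes. The shares recovered are thus those of the simulated setting and not the power in these data.

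Members and lists were chosen with earlier results of these data known. The members named were, in male liver, up to 10 past the threshold in each direction and the 2 nearest on each side of it, the 4 with the largest differences in hepatocytes and in female liver among those of at least 5 FPKM in a library, those with a peak in at least 3 IP libraries or 1 of the 5 highest enrichments, those listed at 0, and a set chosen by role. Mrpl35, Mrpl45, Mrpl46, Mrpl48, Mrpl49, Mrpl57, Mrps11, Mrps16 and Mrps21 were named after their values were seen. Gene models were GENCODE M21, promoters RefSeq. Alternatives were other pseudocounts (0.1), filters (none, 5 FPKM), scalings, no trend, a replicate block, each library left out, a joint fit with female liver, stricter peak cutoffs (5% false discovery rate, 10-fold) and assignment by exon.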

Additional observations from a re-analysis of the deposited data

How the results depend on the processing

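In male liver 3 members and 567 genes in all were called. Without a filter on low values this was 0 members (18 at an unadjusted p under 0.05) and 11 genes in all, with median-ratio scaling 1 member (the genes called higher and lower were then 187 and 250, against 403 and 164), with limma without a trend 1 member and 375 genes, with the replicate block 9 members and 1074 genes, and with male and female liver in 1 fit 13 members and 1861 genes. Leaving out 1 library gave 0 members each time and 0 to 2 genes in all (2 without the replicate 2 WT liver, 0 without each of the others). With so few genes passing in the whole table, this says little about single members. Deviations of same-numbered cKO and WT livers correlated at 0.126; with only 2 pairs the numbers were not taken to pair the samples. The median log2 fold change of the members kept its sign under every alternative run, with 0.25 in male liver (all genes 0.06), 0.32 in hepatocytes (all genes -0.04) and 0.45 in female liver (all genes 0.10) under median-ratio scaling, 0.10 in hepatocytes and 0.59 in female liver without mitochondrial-encoded genes, and 0.39 to 0.91 in male liver when 1 library was left out. No difference of effects between tables was called for a member under any alternative run (0 to 9 members at an unadjusted p under 0.05 for hepatocytes and 1 to 16 for female liver, each against male liver in limma). Mrpl43 was called in 7 of 12 alternatives, Mrpl54 in 5 and Mrps23 in 4. With a false discovery rate of at most 5%, 0 members had a peak in cKO hepatocytes and in each of the 4 male livers. With at least 10-fold enrichment the male livers held 0 and 1 members in cKO and 1 and 1 in WT. The shares of all genes at these 2 peak cutoffs were not computed, so the counts are not results about the members. Count models were not run: between 93.8% and 95.9% of the low scaled counts of a library were whole fragments, which was not taken as enough in every library to use them as reads. The causes of these changes were not tested. The median member had 16.0 estimated fragments in WT hepatocytes, the fewest of the 8 libraries.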
